A study of Mus musculus with 16 samples.

Results

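Hepatocytes hold their identity through a small set of transcription factors. The account below follows 9 of them, out of 35502 genes in the deposited table: Hnf4a, Cebpa, Cebpb, Nr5a2, Onecut1, Prox1, Foxa1, Foxa2 and Foxa3. They were picked by name for this known role, and all 9 were in the table and passed the filter on low counts. RNA came from the livers of 16 mice, 1 library per mouse, in 4 groups of 4. Mature controls and immature controls carried the floxed allele without Cre. Mature and immature LERKO mice carried Cre and lacked oestrogen receptor alpha in the liver. The floxed allele was thus shared by all groups, while Cre itself went only with the knockout, so the effects of Cre and of receptor loss cannot be told apart. The labels used here state neither the Cre driver nor age or sex, nor whether the stage means that at knockout or at collection. The series title asks how loss of the receptor before or after sexual maturity affects the liver.

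The factors work as a cross-regulating network. HNF4A is a nuclear receptor that drives genes of lipoprotein, clotting and bile acid metabolism. C/EBP alpha and C/EBP beta are leucine zipper proteins, the former tied to metabolic differentiation and the latter to inflammation, fasting and regeneration. FOXA1, FOXA2 and FOXA3 are forkhead proteins that can bind closed chromatin and open liver enhancers. In breast cancer cells FOXA1 also makes chromatin accessible to oestrogen receptor alpha. ONECUT1, also called HNF6, carries a cut domain and a homeodomain, and its liver transcript is known to respond to growth hormone. PROX1 is a homeobox protein and a co-repressor of HNF4A and NR5A2. NR5A2, also called LRH-1, is a nuclear receptor that controls bile acid and cholesterol genes.

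Promoter sequences are shown for Foxa2 and the factors correlated with it across livers, Onecut1 and Foxa1, and for Nr5a2, whose first promoter held paired arms of the oestrogen response element. They come from the RefSeq table for GRCm38.p6 and run 5′ to 3′ on the gene's strand, from 250 bases before the start to 50 bases after it. The windows are chr9:74861671-74861970 on the plus strand for Onecut1 and, on the minus strand, chr2:148046920-148047219 for Foxa2, chr12:57546062-57546361 for Foxa1 and chr1:136960399-136960698 for Nr5a2. Capitals mark letters that match a searched motif.
Onecut1 promoter: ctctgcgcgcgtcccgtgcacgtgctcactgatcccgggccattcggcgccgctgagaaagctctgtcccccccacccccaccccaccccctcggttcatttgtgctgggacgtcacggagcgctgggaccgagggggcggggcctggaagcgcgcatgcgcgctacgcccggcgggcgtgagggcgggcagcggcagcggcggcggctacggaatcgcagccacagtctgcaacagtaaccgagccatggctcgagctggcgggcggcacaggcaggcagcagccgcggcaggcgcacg
Foxa2 promoter: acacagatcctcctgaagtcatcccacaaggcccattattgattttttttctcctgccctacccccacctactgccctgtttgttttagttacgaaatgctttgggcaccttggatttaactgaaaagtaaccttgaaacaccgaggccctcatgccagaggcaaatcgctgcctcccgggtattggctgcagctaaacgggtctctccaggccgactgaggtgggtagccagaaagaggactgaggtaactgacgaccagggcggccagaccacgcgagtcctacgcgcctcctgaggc
Foxa1 promoter: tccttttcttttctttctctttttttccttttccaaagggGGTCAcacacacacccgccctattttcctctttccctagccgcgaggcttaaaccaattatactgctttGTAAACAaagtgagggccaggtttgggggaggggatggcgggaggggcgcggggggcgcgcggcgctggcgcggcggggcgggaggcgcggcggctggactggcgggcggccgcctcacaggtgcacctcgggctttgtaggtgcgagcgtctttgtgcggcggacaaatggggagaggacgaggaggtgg
Nr5a2 promoter: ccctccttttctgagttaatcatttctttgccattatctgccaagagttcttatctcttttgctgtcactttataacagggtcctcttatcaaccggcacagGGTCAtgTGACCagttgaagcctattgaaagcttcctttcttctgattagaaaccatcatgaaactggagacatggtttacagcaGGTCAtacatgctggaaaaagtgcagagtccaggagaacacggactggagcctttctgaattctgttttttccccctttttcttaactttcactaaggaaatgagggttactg
All 9 factors had an entry in that table, with 14 promoters in all, and 7 motifs were searched on both strands.

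The full oestrogen response element, GGTCANNNTGACC, was in none of the 14 promoters and in 0.07% of the 32851 promoters in the table. Its single arm, GGTCA, was in the promoters of Cebpb, Foxa1 and Nr5a2, against 40.5% of all promoters. In the first Nr5a2 promoter it stood at position -148 from the start, followed on the other strand at -141, and again at -63. The first pair thus faces inward with 2 letters between, in place of the 3 of the full element. The forkhead motif TGTTTAC (3.65% of all promoters) was in the Foxa1 promoter at -141, on the opposite strand. The C/EBP motif TTGCNNAA (10.8%) was in the second Nr5a2 promoter at -243. The ONECUT motif ATCGAT (0.925%), the STAT motif TTCNNNGAA (8.3%) and the HNF4 motif CAAAGTCCA (0.475%) matched none of the 14. The arm lies inside the full element, and the other motifs were counted separately. The STAT motif was added after the expression values were seen. Onecut1 and Foxa2 held no match in the windows shown above.

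Esr1, which encodes oestrogen receptor alpha, checked the labels. It stood at 75, 66.7, 110 and 76.9 CPM in mature controls and at 15.8, 19.1, 16.4 and 13.9 CPM in mature LERKO livers. CPM puts the counts of all libraries, corrected by TMM factors, on the same total. Among immature mice levels were 65.8, 84.5, 89 and 55.3 CPM without Cre and 10.7, 12.6, 16 and 12.7 CPM with Cre. Every LERKO library was below every control library. The log2 fold change was -2.33 (SE 0.19, adjusted p = 1.57e-05) in mature and -2.5 (SE 0.19, adjusted p = 6.55e-06) in immature mice by edgeR's quasi-likelihood test. Esr1 was the only gene of 13379 to pass an adjusted p of 0.05 in either knockout comparison.

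Total counts ran from 18123974 to 23213905 per library. Alb, the main secreted protein of hepatocytes, ranged from 61700 to 119000 CPM, so hepatocyte RNA was plentiful in every library. A few libraries stood apart. Summed skeletal muscle markers were at 966 and 425 CPM in mature control libraries 1 and 2, 190 in immature LERKO library 4 and 64.3 in mature control library 4, against at most 3.09 elsewhere. Mature LERKO library 4 held 192000 CPM of summed acute phase transcripts and 1590 of neutrophil and monocyte markers, against at most 44000 and 30.4 in the other libraries. Lcn2 is on both lists and made up 1520 of the 1590 CPM, so these sums are not independent. The neutrophil gene S100a9, which is not on the acute phase list, was also highest in that library, at 32 CPM. This value alone exceeds the whole neutrophil and monocyte sum of every other library. Summed endothelial markers of mature LERKO library 4 were 134 CPM and its stellate cell markers 151, both the lowest of the 16. In tissue RNA, fewer cells of a type and less RNA per cell cannot be told apart.

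Per length of annotated exon, the 9 factors formed a high and a low tier. Cebpb had 204 ± 47.5, Cebpa 195 ± 19 and Hnf4a 181 ± 32.2 CPM per kb (mean ± SD, n = 16). The low tier began with Foxa3 at 23.2 ± 5.31 CPM per kb, followed by Prox1 at 21 ± 4.18 and Foxa2 at 16.8 ± 6.19. Onecut1 had 12.4 ± 13.1, Nr5a2 11.7 ± 0.957 and Foxa1 6.12 ± 2.58 CPM per kb. Only the step from Hnf4a to Foxa3 separated neighbours without overlap, in 16 of 16 libraries. Elsewhere neighbours overlapped: Cebpb was above Cebpa in 10 of 16 libraries and Foxa3 above Prox1 in 12. Onecut1 was above Nr5a2 in only 4 of 16 libraries although its mean was higher. These are mixed-tissue values, and Foxa1, Foxa2, Onecut1 and Prox1 are also known from bile duct or lymphatic cells. Summed cholangiocyte markers ranged from 49.8 to 74.3 CPM and lymphatic endothelial markers from 18.1 to 124 CPM; their part in the factor levels was not tested.

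**Figure D1:**
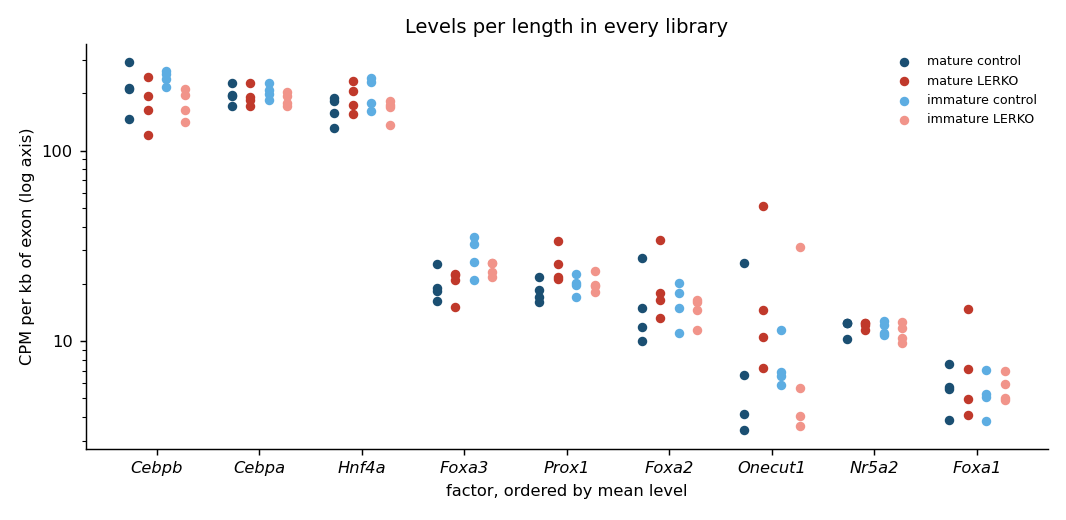
CPM per kb of exon (log axis) of each factor in 16 libraries, coloured by group, with factors ordered by mean level. Cebpb, Cebpa and Hnf4a lie above all values of the other factors, while Onecut1 spreads over more of the axis than any other factor.

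None of the 9 factors passed an adjusted p of 0.05 in any of 7 comparisons by edgeR. Over all genes, the share passing was 0.00747% in each of the mature, immature and stage-averaged knockout comparisons. It was 0% in the stage comparisons of controls, of LERKO mice and of both genotypes averaged, and in the test of whether the knockout effect differed between stages. DESeq2 passed 14, 14, 64, 6, 26, 3 and 27 genes, in the order mature knockout, immature knockout, stage in controls, stage in LERKO, difference, averaged knockout and averaged stage. No factor was among them. At an unadjusted p below 0.05, edgeR gave 976, 369, 1317, 660, 850, 494 and 1060 genes in the same order. As shares of all tested genes these are 7.3%, 2.76%, 9.84%, 4.93%, 6.35%, 3.69% and 7.92%. The factors below that level numbered 1, 0, 1, 1, 1, 2 and 1 of 9. With so few members, these counts do not set the factors apart from the background.

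**Figure D2:**
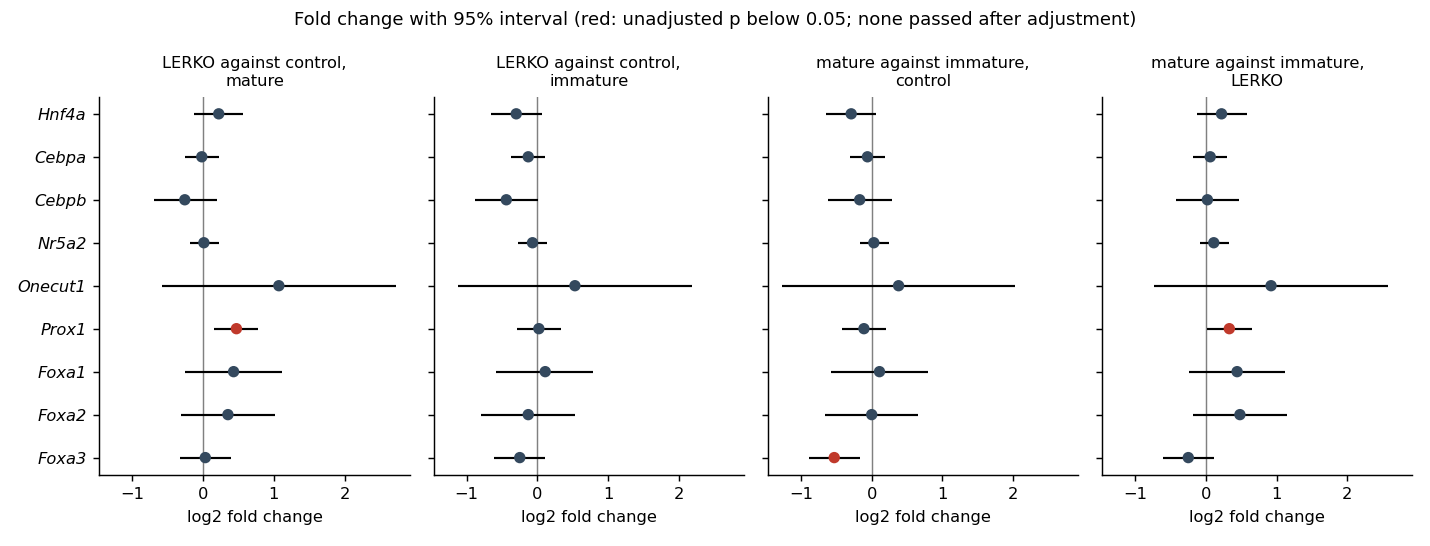
Log2 fold change (point) and 95% interval (line) of each factor in the 4 pairwise comparisons. Most intervals are narrow and cross 0, those of Onecut1 are the widest, and the red points mark unadjusted p below 0.05 for Prox1 in mature knockouts and between LERKO stages and for Foxa3 between control stages.

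The 95% intervals give a range of change for each factor, without adjustment for the number of factors or comparisons. In mature mice, 6 of 9 factors had a 95% interval lying wholly within a 2-fold change, against 81.2% of all genes. In immature mice it was 8 of 9, against 83.4%, and Onecut1 was the exception. The median log2 fold change of the 9 was 0.22 in mature knockouts, beside -0.01 over all tested genes, and -0.13 in immature knockouts, beside 0.01. For the stage it was -0.06 in controls (all genes 0.02) and 0.22 in LERKO mice (all genes 0). Fitted values were above 0 for 7 of 9 factors in mature and 3 of 9 in immature knockouts, beside 48.2% and 53.2% of all genes. All 9 were above 0 for the mature minus immature knockout effect, beside 48.7% of all genes, with a median of 0.33 beside -0.01. Without the 3 libraries richest in muscle transcripts, 6 of 9 were above 0 there, with a median of 0.04. The mature knockout median was then 0.05, with 5 of 9 above 0, and that for the stage in controls 0.05, with 7 of 9 above 0 in place of 3. Without mature LERKO library 4 the mature knockout median was 0.34 and that of the difference of effects 0.47. The difference of effects and both within-stage comparisons share their samples. The factors also vary together, with 27 of 36 pairwise r positive, so these are not counts of independent genes.

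**Figure D3:**
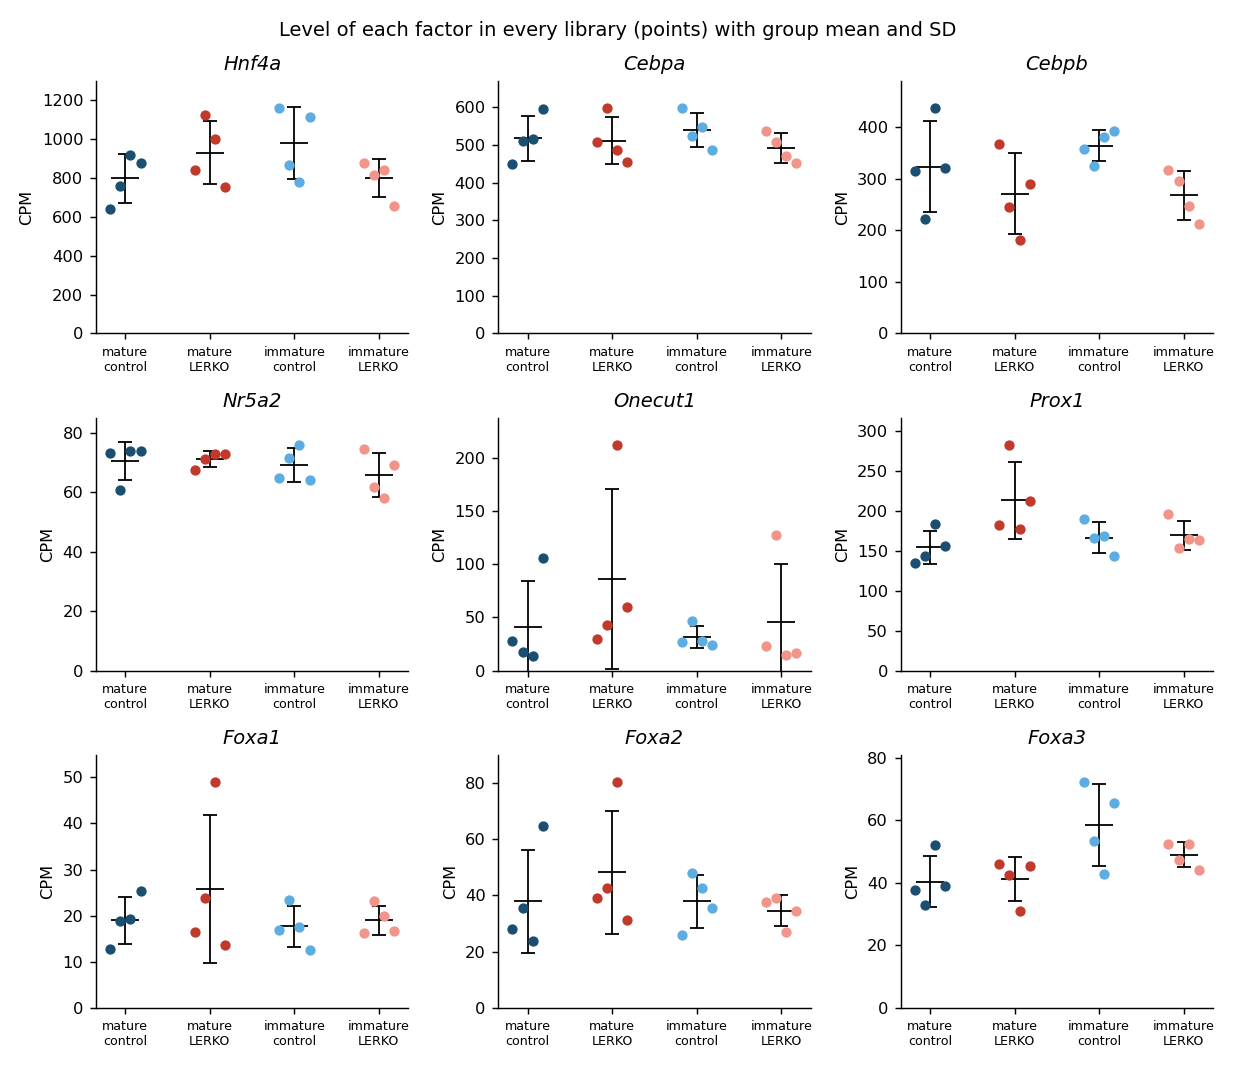
CPM of each factor in every library (points, 4 per group, linear axis from 0) with the group mean and SD (bars; those reaching below 0 are cut at the axis). Cebpa and Nr5a2 are nearly flat, single libraries carry the Onecut1 means, and only Cebpb shows no overlap between immature controls and immature LERKO livers.

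Hnf4a lies at chr2:163506808-163572910 on the plus strand (ENSMUSG00000017950, GENCODE vM21 on GRCm38). Values were 638, 759, 917 and 877 CPM in mature control livers and 842, 1120, 1000 and 754 CPM in the mature LERKO group. The immature control livers were at 1160, 866, 778 and 1110 CPM, those of immature LERKO mice at 878, 814, 839 and 656 CPM. The groups overlap in every comparison. The mean was higher in LERKO livers among mature mice and lower among immature mice. The mature minus immature knockout effect was 0.52 on the log2 scale (SE 0.24, unadjusted p = 0.0437, adjusted p = 0.773 by edgeR). In controls, the mature minus immature value was -0.29 (SE 0.17, adjusted p = 0.618). The immature knockout had -0.3 (SE 0.17, adjusted p = 1). Without the 3 libraries richest in muscle transcripts, the difference of effects was 0.26 (unadjusted p = 0.332 by edgeR), and mature controls then hold only 2 libraries. Hnf4a has 2 start sites in RefSeq, and counts per gene do not separate their products.

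Genes that HNF4A is known to drive gave no call either. Of 24 listed targets, all were tested and none passed in any comparison. Median log2 fold changes were 0.05 and 0 for the mature and immature knockouts and -0.08 and -0.03 for the stage in controls and in LERKO mice. Apoa1, the main HDL protein, and Ttr, the thyroxine carrier, had the highest levels of the list. Apoa1 stood at 8410 ± 2460 CPM in mature controls and 8830 ± 1230 in mature LERKO livers (SD, n = 4 each). Its immature groups had 10700 ± 1070 and 9010 ± 4350 CPM. Ttr had 6170 ± 471 and 5460 ± 791 CPM in the mature groups and 6810 ± 538 and 6880 ± 671 in the immature groups.

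Cebpa (chr7:35119293-35121928, plus strand, ENSMUSG00000034957) was among the steadiest factors. Its lowest and highest libraries were 450 and 597 CPM over all 16, a span of 1.33-fold. Group means were 517 ± 59.8 and 511 ± 61.4 CPM in mature controls and LERKO livers, and 539 ± 45.9 and 492 ± 39 in the immature groups. The 95% interval of the mature knockout effect ran from -0.26 to 0.23 and that of the immature from -0.38 to 0.11 on the log2 scale. Both lie within a 1.5-fold change in either direction.

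Cebpb (chr2:167688915-167690418, plus strand, ENSMUSG00000056501), the inducible partner, varied more. The mature control livers were at 315, 222, 437 and 322 CPM, those of mature LERKO mice at 368, 246, 181 and 290 CPM. Among immature mice levels were 358, 326, 381 and 393 CPM without Cre and 317, 296, 247 and 213 CPM with Cre. The immature groups did not overlap, while the mature groups did. The immature log2 fold change was -0.44 (SE 0.21, 95% interval -0.89 to 0.01, unadjusted p = 0.0526, adjusted p = 1 by edgeR). Averaged over stages it was -0.35 (SE 0.15, unadjusted p = 0.0328, adjusted p = 0.999). Without the 3 muscle-rich libraries the immature value was -0.34 (unadjusted p = 0.117 by edgeR).

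Cebpb was the only factor without overlap between immature controls and knockouts, a comparison in which 1.63% of all genes show none. The factors without overlap numbered 0 of 9 in the other 3 pairwise comparisons. There the shares of all genes were 3.9% for the mature knockout, 8.86% for the stage in controls and 1.52% for the stage in LERKO mice. Cebpb shares 312 exonic bases, 20.7% of its exons, with Tmem189 on the opposite strand. Tmem189 counts were 4.68 to 11.3% of those of Cebpb, and the labels used here do not state how the counting treated strand.

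The ratio of Cebpa to Cebpb CPM was 1.69 ± 0.493 in mature controls, 2.01 ± 0.64 in mature LERKO, 1.49 ± 0.191 in immature controls and 1.86 ± 0.195 in immature LERKO livers (SD, n = 4 each). In the immature groups it ran from 1.24 to 1.67 in controls and from 1.7 to 2.12 in LERKO livers, without overlap, as already seen for Cebpb alone. In the mature groups it overlapped, from 1.18 to 2.3 and from 1.38 to 2.69.

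Known C/EBP targets include urea cycle, gluconeogenic and acute phase genes. Of 21 listed, all tested, none passed, but 8 had an unadjusted p below 0.05 in mature knockouts, 6 of them higher and 2 lower. Over all genes the share below that level was 7.3%. The list shares 7 genes with the acute phase list, and 6 of the 8 were among these. Without mature LERKO library 4, the liver with the high acute phase sum, 0 were higher and 2 lower at that level. Between the stages of LERKO mice 8 of 21 were below 0.05 with that library (4.93% of all genes) and 4 without it. Cebpb itself stood at 290 CPM in that liver, within the range of the other mature LERKO livers. Alb had 96000 ± 9820 and 85900 ± 16500 CPM in mature controls and LERKO livers and 103000 ± 9280 and 98800 ± 14300 in the immature groups. Cyp2e1, an ethanol-oxidising P450, had 9180 ± 1170 and 8270 ± 2500 CPM, then 13500 ± 3190 and 9160 ± 3040 in the immature groups. Its immature log2 fold change was -0.56 (SE 0.26, unadjusted p = 0.0476, adjusted p = 1).

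Nr5a2 (chr1:136842571-136960448, minus strand, ENSMUSG00000026398) had the smallest spread of the 9. Its group means were 70.5 ± 6.51 CPM in mature controls, 71.1 ± 2.59 in mature LERKO, 69 ± 5.68 in immature controls and 65.8 ± 7.46 in immature LERKO livers (SD, n = 4 each). Single libraries ran from 57.8 to 75.7 CPM. The mature knockout interval was -0.19 to 0.22 and the immature one -0.27 to 0.14 on the log2 scale. Of 14 tested targets of NR5A2, out of 15 listed, none passed. Their median log2 fold changes were -0.01 and -0.18 for the mature and immature knockouts and -0.15 and -0.1 for the stage in controls and LERKO mice. The 2 most abundant were Apoa1, above, and Cdo1, a cysteine-oxidising enzyme, at 1200 ± 142, 1310 ± 62.5, 1440 ± 151 and 1250 ± 145 CPM in mature control, mature LERKO, immature control and immature LERKO livers.

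Prox1 (chr1:190118035-190170714, minus strand, ENSMUSG00000010175) had the smallest knockout p of the set in mature mice. Values were 135, 143, 183 and 156 CPM in mature control livers and 183, 282, 177 and 212 CPM in the mature LERKO group. The immature control livers were at 190, 166, 168 and 143 CPM, those of immature LERKO mice at 196, 153, 165 and 164 CPM. Mature LERKO library 2 was the highest of all 16, and the mature groups overlapped through control library 3. The mature log2 fold change was 0.47 (SE 0.15, 95% interval 0.15 to 0.78, unadjusted p = 0.00622, adjusted p = 0.481 by edgeR). Without mature LERKO library 2 it was 0.3 (unadjusted p = 0.0344 by edgeR), and without the 3 libraries richest in muscle transcripts 0.33 (unadjusted p = 0.109). Those 3 include the mature control libraries lowest in Prox1, at 135 and 143 CPM, and the part of muscle RNA was not tested. Without mature LERKO library 4 it was 0.5 (unadjusted p = 0.00771 by edgeR). The stage difference in LERKO mice was 0.33 (SE 0.15, unadjusted p = 0.0386, adjusted p = 0.955) and 0.17 without mature LERKO library 2. Averaged over stages, the knockout effect was 0.25 (SE 0.1, unadjusted p = 0.0322, adjusted p = 0.999). The mature minus immature knockout effect of Prox1 was 0.44 (SE 0.21, unadjusted p = 0.0505, adjusted p = 0.774). Prox1 is also the defining factor of lymphatic endothelium. The 4 tested lymphatic markers had a median log2 fold change of -0.42 in mature knockouts, and -0.2 without mature LERKO library 4, none with an unadjusted p below 0.05 by edgeR. Their part in the Prox1 values was not tested.

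Foxa3 (chr7:19013284-19023538, minus strand, ENSMUSG00000040891), a forkhead factor of adult liver, had its smallest p-values in the stage comparisons. Immature controls held 72.1, 53.2, 42.8 and 65.6 CPM and mature controls 37.6, 33, 52 and 38.8 CPM. Immature LERKO livers held 52.4, 47.3, 52.3 and 43.9 CPM and mature LERKO livers 45.9, 42.6, 31 and 45.3 CPM. Mature means were the lower ones in both genotypes, and the groups overlapped in each. In controls the mature minus immature log2 fold change was -0.53 (SE 0.17, 95% interval -0.89 to -0.17, unadjusted p = 0.00636, adjusted p = 0.307 by edgeR). Averaged over genotypes it was -0.39 (SE 0.12, unadjusted p = 0.00499, adjusted p = 0.433). Leaving out single libraries moved the control value between -0.42 and -0.68, and without the 3 muscle-rich libraries it was -0.37 (unadjusted p = 0.0996 by edgeR). In the same comparison the 12 Kupffer cell and macrophage markers had a median of 0.6, with 10 higher at an unadjusted p below 0.05 by edgeR, and the 14 endothelial markers 0.71, with 9 higher. Over all genes the share below 0.05, in either direction, was 9.84%. None of these markers passed after adjustment, and their part in the Foxa3 value was not tested. Foxa3 overlaps Sympk on the opposite strand but shares no exon with it.

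Foxa1 (chr12:57540628-57546916, minus strand, ENSMUSG00000035451) and Foxa2 (chr2:148042877-148046969, minus strand, ENSMUSG00000037025) are the other forkhead members. Foxa2 stood at 28, 35.4, 23.7 and 64.6 CPM in mature controls and 39, 42.5, 80.3 and 31.3 CPM in mature LERKO livers. Among immature mice levels were 26, 47.9, 42.5 and 35.6 CPM without Cre and 37.9, 39.2, 27 and 34.5 CPM with Cre. Single mature livers were high, control library 4 and LERKO library 3, and all groups overlapped. Foxa1 stood at 12.8, 18.8, 19.2 and 25.3 CPM in mature controls and 16.5, 23.9, 48.9 and 13.6 CPM in mature LERKO livers. The immature control livers were at 17, 23.4, 17.6 and 12.6 CPM, those of immature LERKO mice at 16.3, 23.1, 19.9 and 16.7 CPM. Its highest libraries in the mature groups were those highest in Foxa2. The mature knockout value of Foxa1 was 0.43 (SE 0.32, adjusted p = 0.777). It was -0.07 without mature LERKO library 3 and 0.67 (unadjusted p = 0.0435 by edgeR) without mature LERKO library 4. Between LERKO stages the log2 fold changes were 0.44 (SE 0.32) for Foxa1 and 0.48 (SE 0.31) for Foxa2, both with adjusted p = 0.955. Without mature LERKO library 3 the Foxa1 value was -0.08. The mature minus immature knockout effect of Foxa2 was 0.48 (SE 0.44, adjusted p = 0.875), and averaged over stages that of Foxa1 was 0.27 (SE 0.23, adjusted p = 0.999). The stage effect of Foxa1 averaged over genotypes was also 0.27 (SE 0.23, adjusted p = 0.785).

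FOXA targets were followed through 16 listed genes, of which 15 were tested and none passed. At an unadjusted p below 0.05 by edgeR there were 3 in the mature and 0 in the immature knockout. For the stage there were 1 in controls and 4 in LERKO mice. The shares of all genes were 7.3%, 2.76%, 9.84% and 4.93% in the same order. Median log2 fold changes were -0.16 and -0.07 for the mature and immature knockouts and -0.04 and -0.2 for the stage in controls and LERKO mice. In mature knockouts the median was 0 without mature LERKO library 4. Alb and Ttr, given above, were the most abundant of the list.

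Onecut1 (chr9:74861921-74891781, plus strand, ENSMUSG00000043013) varied far more between mice of 1 group than between groups. The mature control livers were at 27.5, 17.2, 14 and 106 CPM, those of mature LERKO mice at 29.9, 43.1, 212 and 60 CPM. Among immature mice levels were 27.2, 46.8, 28.2 and 24.2 CPM without Cre and 23.5, 128, 14.7 and 16.6 CPM with Cre. In 3 of the 4 groups a single liver stood well above the rest, and the span over 16 livers was 15.2-fold. The within-group coefficient of variation averaged 89.2%, above that of 99.7% of genes of like level, whose median was 10.8%. For Foxa2 it was 33.6% and for Foxa1 32.8%, each above 97.2% of genes of like level. For Cebpa it was 10% and for Nr5a2 8.12%, above only 25.6% and 25.2% of such genes.

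The intervals of every Onecut1 comparison were wide. The mature knockout log2 fold change was 1.07 (SE 0.78, 95% interval -0.58 to 2.72, adjusted p = 0.772 by edgeR) and the immature one 0.53 (SE 0.78, adjusted p = 1). Without mature LERKO library 3 the mature value was 0.11, and without mature control library 4 it was 2.14 (unadjusted p = 0.0159, adjusted p = 0.584). Without immature LERKO library 2 the immature value was -0.79. The stage values were 0.38 (SE 0.78, adjusted p = 0.918) in controls and 0.92 (SE 0.78, adjusted p = 0.955) in LERKO mice. They were -0.7 without mature control library 4 and -0.05 without mature LERKO library 3. The mature minus immature knockout effect was 0.54 (SE 1.1, adjusted p = 0.953), and -0.43 without mature LERKO library 3. Averaged, the knockout effect was 0.8 (SE 0.55, adjusted p = 0.999) and the stage effect 0.65 (SE 0.55, adjusted p = 0.792). The direction of 4 of these 7 values therefore rested on single livers.

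Part of the Onecut1 count cannot be assigned with certainty. The long noncoding gene Gm20649 lies on the same strand and shares 2171 exonic bases with it, 79.2% of its own exons and 52.8% of those of Onecut1. Its counts were 50.5 to 65.5% of those of Onecut1 in every library and followed it with r = 1 over 16 libraries. Gm16551, on the same strand within the locus, shares no exon and had 6.34 to 39.3% of the Onecut1 count.

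Across the 16 livers, 36 pairs of factors were compared on log2 CPM, and 2 passed an adjusted p of 0.05 by permutation of Pearson's r. Onecut1 and Foxa2 had r = 0.77 and rho = 0.73 (permutation p = 0.00061, adjusted p = 0.022 for r; p = 0.0018, adjusted p = 0.066 for rho). Without the 2 livers farthest from the Onecut1 median, r was 0.71, and with group means removed it was 0.73. Foxa1 and Foxa2 had r = 0.74 and rho = 0.54 (permutation p = 0.0015, adjusted p = 0.028 for r; p = 0.033, adjusted p = 0.29 for rho). Without the 2 livers farthest from the Foxa1 median, r was 0.58. For Onecut1 and Foxa1 r was 0.66 (permutation adjusted p = 0.06) but 0.3 without the 2 farthest livers. That relation rests on those samples. Foxa3 had negative r with Onecut1, Foxa1 and Foxa2, at -0.38, -0.47 and -0.53, none of which passed. With group means removed, r between Foxa2 and Foxa3 was -0.66, but over the plain values it was -0.22 without the 2 farthest livers. Hnf4a with Cebpa and Cebpb with Foxa3 both had r = 0.62 (permutation adjusted p = 0.075). Of the 36 coefficients 27 were positive, and all pairs share the same libraries and scaling.

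**Figure D4:**
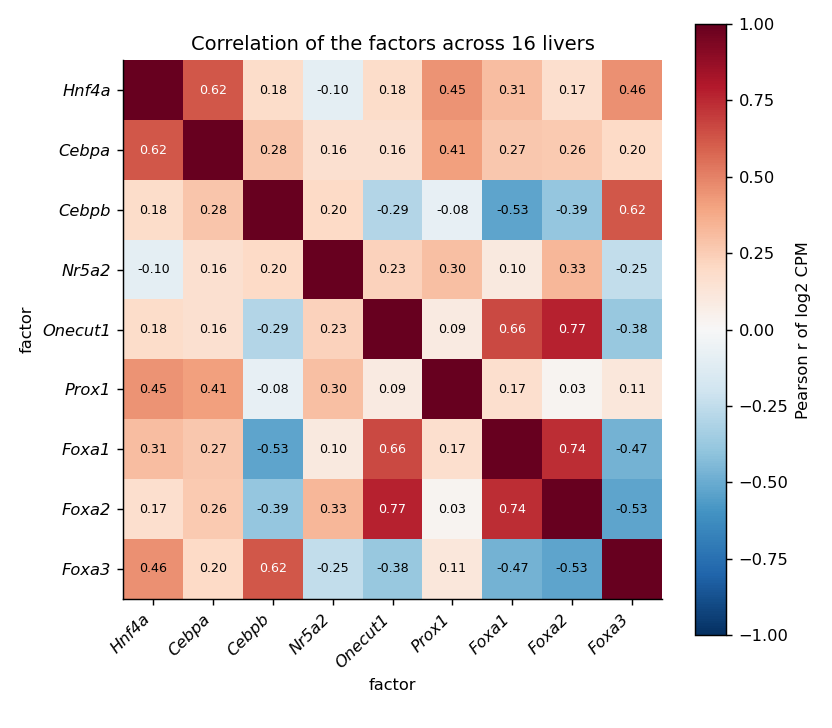
Pearson correlation of log2 CPM between each pair of factors over 16 livers, from -1 (blue) to 1 (red), with the coefficient in each cell. Onecut1, Foxa1 and Foxa2 form a block with r from 0.66 to 0.77, and Foxa3 is negative with each of the 3.

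The genes most like each factor were taken as the 3 with the highest Pearson r over the 16 libraries, as a description. Onecut1 was most like Gm20649 (r = 1), Wdr45b (0.91) and Cish (0.91). Foxa2 was most like Phlda1 (0.85), Cish (0.84) and Map7 (0.84). Foxa1 was most like Fzd7 (0.9), a Wnt receptor, Hhex (0.89), a homeobox factor of early liver, and Mad2l1bp (0.88).

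Cish encodes a STAT5-induced inhibitor of cytokine signalling, known in liver as an early target of growth hormone. It stood at 21.2, 10, 6.34 and 88 CPM in mature controls and 27.5, 22.6, 118 and 23.5 in mature LERKO livers. The immature control livers were at 9.95, 49.7, 25.8 and 23.1 CPM, those of immature LERKO mice at 11, 58.6, 13.9 and 8.67 CPM. In each of the 4 groups the liver highest in Onecut1 was also the liver highest in Cish. With group means removed, r between Onecut1 and Cish was 0.91, and without the 2 farthest livers 0.86. Cish was picked from 13379 genes by its r with Onecut1 in these same livers. Such agreement partly follows from that choice and is no separate support. Cish gave log2 fold changes of 0.61 (SE 0.81, adjusted p = 0.9) and -0.24 (SE 0.82, adjusted p = 1) in mature and immature knockouts.

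Other genes known to respond to growth hormone were looked at after these values were seen. Socs2, a further STAT5 target, had r = 0.84 with Onecut1, and Igf1, the main growth factor of liver, 0.65. Bcl6, a repressor that growth hormone lowers, had -0.47. Cux2, a cut homeobox factor typical of female mouse liver, had 0.13. Socs2 stood at 49.3 CPM in mature control library 4, 129 in mature LERKO library 3, 58.7 in immature control library 2 and 93.6 in immature LERKO library 2. Each is the highest value of its group, and each is in the liver highest in Onecut1. Igf1 was also highest in those livers, except in mature LERKO mice, with 729 CPM in library 3 against 803 in library 2. Bcl6 was the lowest of its group in such a liver only among immature LERKO mice, at 3.15 CPM in library 2. How many of all genes share the pattern of Socs2 was not counted. The labels used here state neither hormone levels nor the time of collection, and their part was not tested. Summed muscle markers were 64.3 CPM in that mature control liver and at most 3.09 in the other 3.

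**Figure D5:**
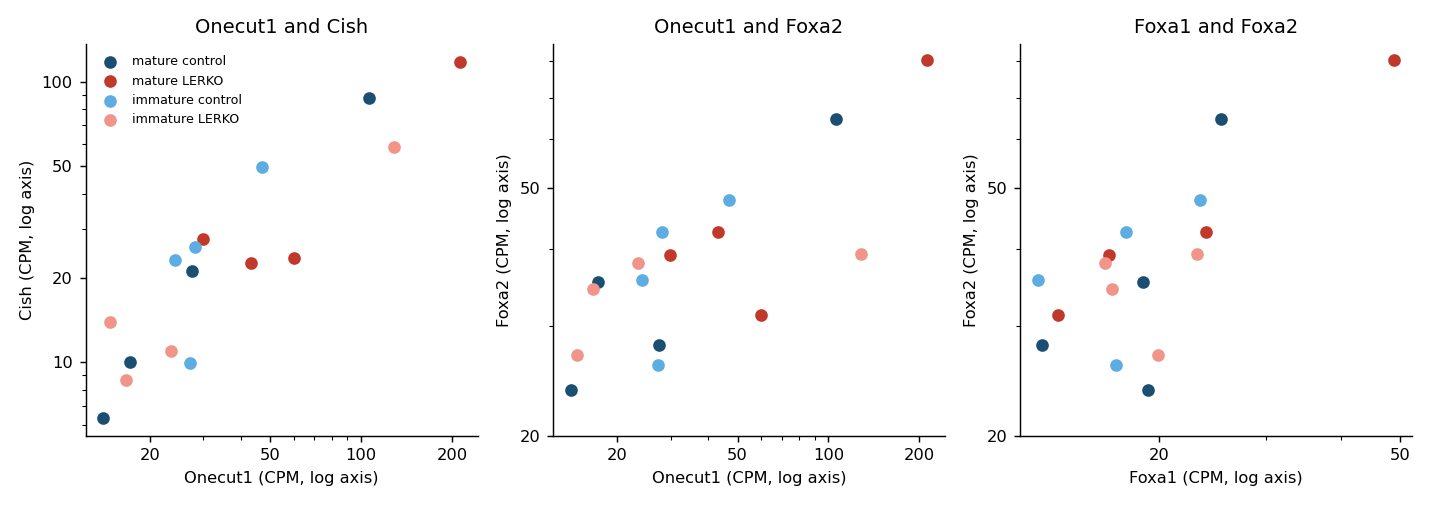
Levels in 16 livers (points, coloured by group; both axes are log CPM) of Onecut1 against Cish, Onecut1 against Foxa2 and Foxa1 against Foxa2. Points of all groups lie along 1 trend for Cish (r = 0.91), and mature LERKO library 3 is at the top right of each panel.

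For the remaining factors the nearest genes were of varied kinds. Hnf4a was most like Twnk (r = 0.94), the mitochondrial DNA helicase, Golph3 (0.89) and Phc2 (0.88). Cebpa was most like Urgcp (0.85), Ddx23 (0.82) and Ncdn (0.82), and Cebpb most like Gphn (0.88), Midn (0.87) and Met (0.85), the hepatocyte growth factor receptor. Nr5a2 was most like Tada3 (0.94), Dnajc13 (0.86) and Bcr (0.84). Prox1 was most like Cwc25 (0.87), Ncoa6 (0.83) and Top3a (0.81), and Foxa3 most like Sec62 (0.85), Lmbrd1 (0.84) and Tpp1 (0.84). The highest of 13379 coefficients over 16 libraries is large by construction, so no test is attached.

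Of 9 close paralogues of the factors listed, 6 were tested and none passed. Nr5a1, the steroidogenic relative of Nr5a2, was at 0 in all 16 libraries, and Onecut3 at 0 in 15. Onecut2, the close relative of Onecut1, was the most abundant, at 87.3 ± 6.56 CPM in mature controls and 134 ± 30.5 in mature LERKO livers (SD, n = 4 each). Its immature groups had 94.6 ± 3.94 and 105 ± 18.5 CPM. The mature log2 fold change of Onecut2 was 0.62 (SE 0.15, unadjusted p = 0.000701, adjusted p = 0.481 by edgeR). Cebpg, a C/EBP partner lacking an activation domain, had 49.1 ± 4.54, 57.7 ± 10.6, 56 ± 6.39 and 55.7 ± 9.12 CPM in mature control, mature LERKO, immature control and immature LERKO livers.

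Other transcription factors of the hepatocyte network gave no call. Of 28 listed, such as Nr1h4 and Ppara, all were tested and none passed in any comparison. Those at an unadjusted p below 0.05 by edgeR numbered 3 in the mature and 0 in the immature knockout. In the stage comparisons of controls and LERKO mice they numbered 0 and 4. The shares of all genes were 7.3%, 2.76%, 9.84% and 4.93% in the same order. The most abundant was Rxra, the shared partner of many nuclear receptors, at 508 ± 32.3, 537 ± 51.3, 568 ± 65.6 and 499 ± 72.8 CPM in mature control, mature LERKO, immature control and immature LERKO livers. Nr1i3, the xenobiotic receptor CAR, had 306 ± 87.4, 270 ± 25.8, 353 ± 70.1 and 357 ± 124 CPM in that order.

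Marker lists of hepatocyte maturity showed no call either. Of 18 mature hepatocyte markers none passed, with medians of -0.13 and -0.05 in the mature and immature knockouts. For the stage their medians were -0.08 in controls and 0.02 in LERKO mice. At an unadjusted p below 0.05 by edgeR, 2 were higher and 3 lower between control stages, beside 9.84% of all genes. Between LERKO stages 0 were higher and 3 lower, beside 4.93% of all genes. Of 14 fetal liver and progenitor genes 9 were tested and none passed. Afp, the fetal albumin relative, was at most 0.653 CPM in any library, and Igf2bp1 and Lin28b were at 0 in all 16. Summed fetal transcripts ran from 15.4 to 43.6 CPM, with the highest values in the 3 libraries richest in muscle transcripts. Their medians in mature and immature knockouts were -0.19 and 0.46, and -0.08 and 0.02 without those 3 libraries.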

How the data were processed

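The deposited table holds 1 value per gene and library for 35502 genes in 16 liver libraries. Per the labels, libraries were stranded and paired-end. The submitters' processing notes list the aligner STAR, the build mm10, R 4.05 and limma; which program counted, on which annotation and strand, is not given in those notes. Deposited values are counts in 11 columns and estimated counts in 5, which hold 10 values that are not whole and were rounded.

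Here genes were filtered with edgeR 4.0.16 (filterByExpr, minimum count 10, minimum total 15), leaving 13379. TMM factors ran from 0.852 to 1.07. The main test was edgeR's quasi-likelihood test, with 7 contrasts in 1 model of 4 groups. P-values were adjusted by Benjamini-Hochberg over all tested genes at a threshold of 0.05. The method was also run on simulated counts, whose spread followed expression level alone and which held no outlying library. That run therefore cannot show how the method treats genes as variable as Onecut1. Standard errors are the absolute log2 fold change over the square root of F. The edgeR p-values weigh a group difference against a spread between mice that is pooled over the 4 groups and moderated across genes. The number of mice limits the precision. Levels are CPM after TMM scaling, and per kb of exon union in GENCODE vM21, which matched 35465 identifiers. Genes of like level are those within 1.5-fold of the mean CPM. Pairwise correlations used log2 CPM (prior count 2) and 1e+05 permutations. Alternatives used DESeq2 1.42.0, limma 3.58.1 (voom), other scalings and filters, and each library left out.

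The factors and the 24 gene lists were chosen with earlier results of these data known. By rule, Esr1 came first and each factor was described in every group. Fold changes were given for factors with an unadjusted p below 0.05 or among the 3 largest of a comparison. Of other lists, members passing the threshold and the 2 with the highest level were named, and for each factor the 3 most alike genes. Other named genes were chosen after their values were seen, among them Socs2, Igf1, Bcl6, Cux2, Afp and paralogues at 0, as were the intervals of Cebpa and Nr5a2 and the Prox1 difference of effects. Replicate numbers follow accession order and pair nothing.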

Additional observations from a re-analysis of the deposited data

Results flagged for a closer look

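In 3 of the 4 groups a single liver stood far above the other 3 in Onecut1, beyond Dixon's 95% limit for groups of 4 on the CPM scale. Onecut1 was at 106 CPM in mature control library 4, 212 CPM in mature LERKO library 3 and 128 CPM in immature LERKO library 2. The next highest livers of those groups were at 27.5, 60 and 23.5 CPM. Nr5a2 stood apart in the other direction in mature controls, with 60.7 CPM in library 2 against 73.3, 73.9 and 74 CPM. The check covered the 9 factors and Esr1 in each of the 4 groups, and chance alone gives about 1 such liver in 20 groups. On log2 CPM, a scale tried after seeing the data, the Onecut1 ratios were 0.667, 0.644 and 0.785, all below that limit, while that of Nr5a2 was 0.953.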

How the results depend on the processing

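No factor passed the threshold under any of 27 alternative settings, and the smallest adjusted p of a named factor was 0.134. Of 611 alternative values of 23 named fold changes, 601 kept their direction and 10 reversed, all in Onecut1 or Foxa1. For Onecut1, limma-voom gave -0.06 for the immature knockout and -0.08 for the stage in controls, where quality weights gave -0.24. Leaving out single libraries moved Onecut1 from -0.79 to 0.82 in the immature knockout, from -0.7 to 0.67 for the stage in controls, from -0.05 to 2.24 for the stage in LERKO mice and from -0.43 to 1.86 for the difference of effects. The last was -0.3 without the 3 muscle-rich libraries. Foxa1 moved from -0.07 to 0.67 in the mature knockout and from -0.08 to 0.65 for the stage in LERKO mice. The lowest values came without mature LERKO library 3, mature control library 4 or immature LERKO library 2, whose high values they remove.

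Genes called over the whole table under DESeq2 numbered 14 in the mature and 14 in the immature knockout, 64 and 6 for the stage in controls and LERKO mice, 26 for the difference of effects, and 3 and 27 for the averaged knockout and stage. For the stage in controls, the compared groups alone gave 6 and voom with quality weights 8. The cause was not tested. Leaving out single libraries gave 1 to 2 genes in the mature knockout (2 without mature LERKO library 1), 0 to 1 for the stage in controls (1 without mature LERKO library 4) and 0 to 1 for the stage in LERKO mice (1 without mature LERKO library 1). With the longest transcript as length, Hnf4a was at 201 and Cebpa at 196 CPM per kb, which swaps their order. With group means removed, 3 further pairs had a permutation adjusted p of 0.039. They were Cebpb and Foxa3 (r = 0.67), Cebpa and Prox1 (0.66) and Foxa2 and Foxa3 (-0.66). That permutation shuffled the deviations freely over all 16 livers and made no allowance for the removed group means. Its p-values are therefore too small, and no pair is called from them. Without mature LERKO library 4, Onecut1 and Foxa1 also passed (r = 0.75, permutation adjusted p = 0.021). No paired analysis was possible because the labels carry no replicate numbers and each mouse gave 1 library.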
